A study of Rattus norvegicus with 6 samples.

Results

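Sncg, Bex1 and Ncam1 are a group of 3 genes known mainly from nerve cells that were followed here in rat skeletal muscle. They were taken as every probe set annotated with the single symbol Sncg, Bex1 or Ncam1, which gave 4 of the 15923 probe sets on the array and 3 of 10412 named genes. Sncg and Bex1 had 1 probe set each and Ncam1 had 2. Sncg and Bex1 had been picked because they differed between the muscles compared below, so their differences are given as a description and carry no test.

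Total RNA came from the tibialis anterior, a muscle of the front of the lower leg, in 3 male Wistar rats aged 8 weeks that carry the numbers 4, 5 and 6. The peroneal nerve, which supplies this muscle, was cut and its end sewn to the biceps femoris, and after 4 weeks the proximal stump was joined to the distal one. The animals then lived for 8 weeks, a period read here as following the repair. The ipsilateral muscle of each animal, on the operated side, was set against its contralateral muscle, which belongs to the same operated animal and is not an unoperated control. That gave 6 libraries, 3 per group, 1 per muscle.

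Synucleins are small proteins that bind membranes and are abundant at nerve endings. Gamma-synuclein, encoded by Sncg, is known from peripheral neurons, and in humans and mice also from fat cells. Bex1 encodes a small brain-expressed X-linked protein that in rats binds the neurotrophin receptor p75 and in mice is found in regenerating muscle. Ncam1 encodes the neural cell adhesion molecule, which adult muscle holds at the nerve contact and which denervated muscle fibres are known to show over their surface. Myh7, the slow myosin heavy chain, and Myh3, the embryonic one, were the transcripts against which the 3 genes were read.

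Values are intensities, and log2 differences are ipsilateral minus contralateral within an animal after 15.8, the pseudocount, was added to each intensity. Every array had a trimmed mean intensity of about 150. The muscle transcripts Ckm and Acta1 lay between 5212 and 8247 in all 6 libraries. Ckm was lower ipsilaterally in each animal, and so was Myh4, a fast myosin heavy chain. Myh4 averaged 1476 ± 661 ipsilaterally and 2641 ± 191 contralaterally (SD, n = 3 each). Acta1, Mb and the Myh1 probe sets differed in direction between animals. In tissue RNA, fewer cells of a type and less RNA per cell cannot be told apart. Some libraries stood apart. Prm1, a sperm protamine, was at 617 in ipsilateral 4, against 39.5 to 248 in the others. The 3' cre spike was at 1476 in ipsilateral 4 and 1117 in contralateral 4, against 2481 to 3605 elsewhere. The middle beta-actin probe set, which bears on RNA quality, was at 705 in ipsilateral 6 and 774 in contralateral 4, against 1592 to 1877 elsewhere. The members' differences and their distances to the myosins are therefore also given with these animals left out.

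Sncg had intensities of 324.9 in ipsilateral 4, 1121 in ipsilateral 5 and 735.9 in ipsilateral 6, against 193.8 in contralateral 4, 115.1 in contralateral 5 and 150.1 in contralateral 6. Each ipsilateral value lay above each contralateral one, and the groups did not overlap. The group means were 727 ± 398 ipsilaterally and 153.0 ± 39.4 contralaterally (SD, n = 3 each), a ratio of 4.75. The within-animal log2 differences of animals 4, 5 and 6 were 0.70, 3.12 and 2.18, with a mean of 2.0 (SD 1.22, n = 3 pairs). The direction was shared by the 3 animals, and the size was not. Without animal 4 the mean was 2.65, and without animal 6 it was 1.91. The spread among the ipsilateral muscles was also wider, with the highest 3.45 times the lowest, against 1.68 times among the contralateral muscles.

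Bex1 had intensities of 181.2 in ipsilateral 4, 560 in ipsilateral 5 and 382.1 in ipsilateral 6, against 161.5 in contralateral 4, 59.5 in contralateral 5 and 63.3 in contralateral 6. The groups did not overlap, but ipsilateral 4 and contralateral 4 were next to each other, 1.12-fold apart. The means were 374 ± 190 ipsilaterally and 94.8 ± 57.8 contralaterally (SD, n = 3 each). The within-animal log2 differences of animals 4, 5 and 6 were 0.15, 2.93 and 2.33, with a mean of 1.81 (SD 1.46, n = 3 pairs). Without animal 4 the mean was 2.63, and without animal 6 it was 1.54. Contralateral 4 was the contralateral library with the most Bex1, 2.71 times the lowest, so the small difference of animal 4 came with a low ipsilateral and a high contralateral value.

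**Figure D1:**
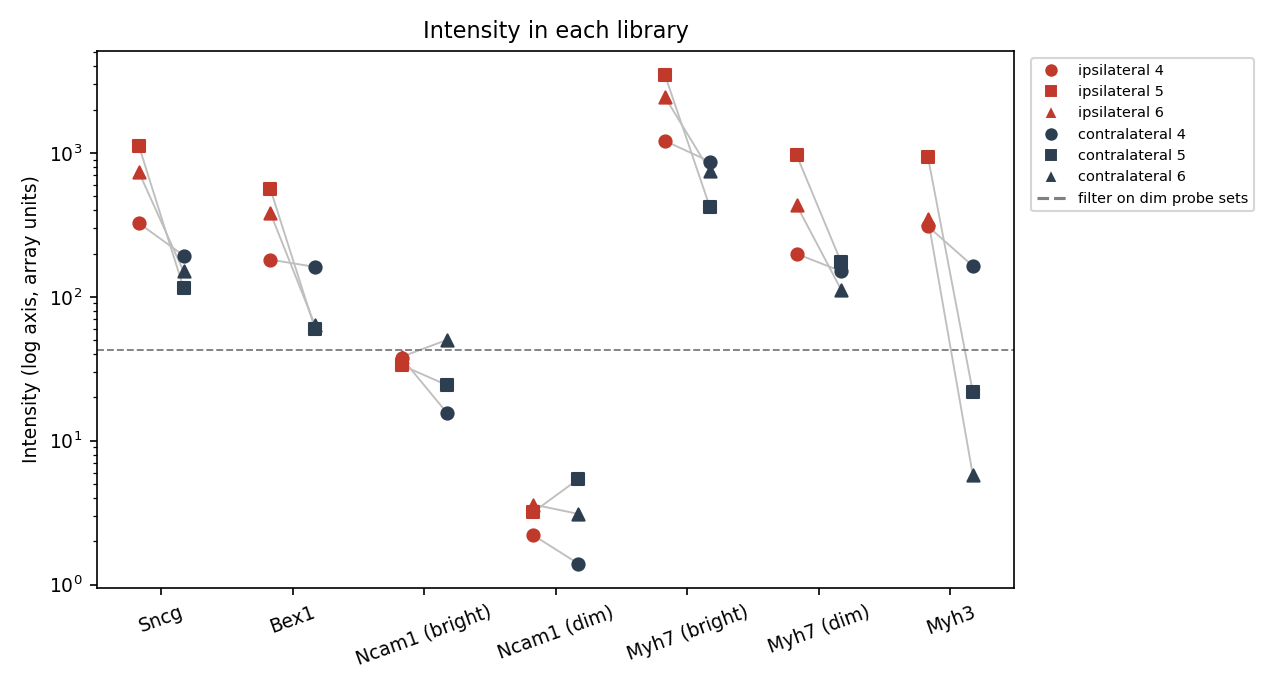
Intensity on a log axis of each probe set of Sncg, Bex1, Ncam1, Myh7 and Myh3, with 1 point per library, red for ipsilateral and dark for contralateral muscles, and grey lines joining the muscles of an animal. Sncg and Bex1 are higher in all 3 ipsilateral libraries than in any contralateral one, and both Ncam1 probe sets overlap between the groups; the dashed line is the intensity of 42.4 that corresponds to the filter on dim probe sets.

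The values of Ncam1 were of another kind. Its brighter probe set had 37.4 in ipsilateral 4, 33.4 in ipsilateral 5 and 38.4 in ipsilateral 6, against 15.7 in contralateral 4, 24.4 in contralateral 5 and 50.1 in contralateral 6. The groups overlapped, and the highest of the 6 values was contralateral 6. The means were 36.4 ± 2.65 ipsilaterally and 30.1 ± 17.9 contralaterally (SD, n = 3 each), and the within-animal log2 differences of animals 4, 5 and 6 were 0.76, 0.29 and -0.28. The mean difference of 0.26 (SD 0.52, n = 3 pairs) was smaller than the spread between animals, and it was 0.0047 without animal 4 and 0.52 without animal 6. The order of the animals was thus unlike that in Sncg and Bex1, with the largest value in animal 4. The dimmer Ncam1 probe set lay at 2.2 to 3.6 ipsilaterally and 1.4 to 5.4 contralaterally, below the pseudocount in every library, and gave a mean log2 difference of -0.02. Both fell short of the filter for dim signals, so that 2 of the 4 probe sets of these genes passed it. At such intensities the deposited values do not show whether Ncam1 was detected.

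Among all 9519 probe sets that passed the filter, Sncg ranked 3 and Bex1 ranked 5 by mean log2 difference, with Myh3 at rank 1 and the brighter Myh7 probe set at rank 6. In animal 4 alone the ranks were 192 for Sncg and 2690 for Bex1. At least 4-fold higher values in both animals 5 and 6 were found for 4 probe sets, 0.042% of those tested, which were Myh3, Sncg, Bex1 and Csrp3. That cut was not among the planned counts and leaves out animal 4, where Bex1 was 1.11-fold higher. Its small share therefore carries no weight as support for members chosen on this contrast. Sncg was also 1 of the 12 (0.126%) that were at least 1.5-fold higher in every animal, and Bex1 was not. A higher value in all 3 animals was in itself common, at 12.3% of tested probe sets (15.1% were lower in all 3), and 4.74% had ipsilateral values that all exceeded the contralateral ones. In limma's paired fit 0 of 9519 probe sets (0%) had a Benjamini-Hochberg adjusted p under 0.05, against 340 higher (3.57%) and 265 lower (2.78%) at an unadjusted p under 0.05. Without animal 4 the adjusted count was 241, a fit with a single residual degree of freedom. These shares are the background for the members, which were chosen on the same contrast.

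Sncg and Bex1 followed the slow myosin closely over the 6 libraries. Myh7 had intensities of 1212.5 in ipsilateral 4, 3473.9 in ipsilateral 5 and 2443.8 in ipsilateral 6, against 872.3 in contralateral 4, 424.1 in contralateral 5 and 755.3 in contralateral 6, by its brighter probe set. From high to low, Sncg, Bex1 and this Myh7 probe set gave the same order of libraries, ipsilateral 5, 6 and 4 and then contralateral 4, 6 and 5. Each library has a single value per probe set, so neighbours in this order have no error of their own. The order was shared by 34 of the 9519 tested probe sets (0.357%), Sncg included. Of the 32 among them with 1 symbol, 4 were slow-fibre genes, namely Myh7, Csrp3, Tnni1 and Tnnt1. The Bex and Tceal list held 2, Bex1 and Tceal9. The NCAM, neuronal, Schwann cell, adipocyte, developmental, macrophage, endothelial and fibroblast lists held 0. At a share of 0.357%, a 0 in lists this short tells nothing about those cell types. Others of the 32, such as Scd2, Ccn2 and Mfap4, were in none of the lists. The dimmer Myh7 probe set kept the ipsilateral order but had contralateral 5 highest among the contralateral libraries, at 173.5.

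Likeness was measured as the root mean square distance between log2 profiles over the 6 libraries, each profile centred on its own mean. The 6 libraries come from 3 animals, so no test was made. Between Sncg and the brighter Myh7 probe set the distance was 0.21, the second smallest of 9518, where the median over all tested probe sets was 1.16. Between Sncg and Bex1 it was 0.27, and between Bex1 and Myh7 0.29. Because the members and Myh7 share a large difference between the sides, the mean of each side was also removed. The brighter Myh7 probe set then ranked 5 of 9518 in likeness to Sncg, at a distance of 0.15 against a median of 0.57, and ranked 17 in likeness to Bex1. The dimmer one ranked 138 for Sncg and 395 for Bex1. Without animal 4 the distance to the brighter Myh7 probe set was 0.23 for Sncg and 0.30 for Bex1. Without animal 6 it was 0.17 for Sncg and 0.12 for Bex1, so which of them lay nearer to Myh7 depended on that animal.

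**Figure D2:**
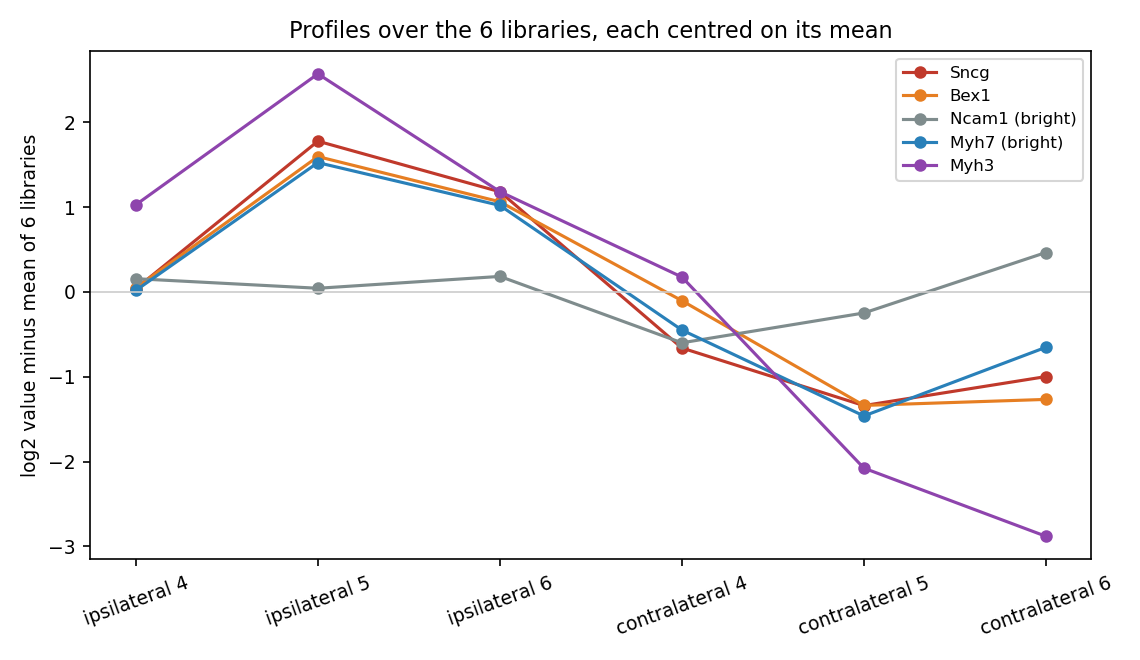
Log2 values of Sncg, Bex1, the brighter Ncam1 probe set, the brighter Myh7 probe set and Myh3 in the 6 libraries (x axis), each minus its mean over the libraries (y axis, log2 units). Sncg, Bex1 and Myh7 run close together, with distances of 0.21 to 0.29 between them, while Myh3 has a wider swing and Ncam1 is highest in contralateral 6.

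Within animals, the log2 difference of Sncg exceeded that of Myh7 by 0.23, 0.13 and 0.51 for animals 4, 5 and 6, a mean of 0.29 (SD 0.19, n = 3 pairs). That of Bex1 minus that of Myh7 was -0.32, -0.05 and 0.66 for animals 4, 5 and 6, a mean of 0.10 (SD 0.50), which was within the spread. All 3 transcripts had their largest difference in animal 5 and their smallest in animal 4. That order of animals was found in 19.1% of all tested probe sets, and together with a higher value in every animal in 3.69%.

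The embryonic myosin was followed in order but not in size. Myh3 had 308.9 in ipsilateral 4, 930.6 in ipsilateral 5 and 345.6 in ipsilateral 6, against 164 in contralateral 4, 21.9 in contralateral 5 and 5.8 in contralateral 6. Its order matched that of Sncg and Bex1 except that contralateral 5 and contralateral 6 changed places. Its within-animal log2 differences were 0.85, 4.65 and 4.06 for animals 4, 5 and 6. The difference of Sncg minus that of Myh3 was -0.15, -1.53 and -1.89 in those animals. The profile distance was 1.03 to Sncg, rank 1256 of 9518, and 0.93 to Bex1, rank 569. With the mean of each side removed, Myh3 ranked 9369 for Sncg and 4543 for Bex1 by distance. This distance also grows with the size of the swing. The Pearson correlation over the 6 libraries, which leaves that size out, was 0.89 between Myh3 and Sncg and 0.95 between Myh3 and Bex1. For the brighter Myh7 probe set it was 0.99 with Sncg and 0.96 with Bex1, and for the dimmer one 0.93 and 0.90. Contralateral 6 lay below the pseudocount for Myh3, which makes its log2 values there depend on that setting, and with a pseudocount of 43 the distances were 0.69 to Sncg and 0.65 to Bex1. They were 0.99 and 0.96 without animal 4, and 0.70 and 0.70 without animal 6. Contralateral 4 held the most Sncg, Bex1 and Myh3 among the contralateral libraries, and the most Myh7 by the brighter probe set.

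The tested, named genes nearest to Sncg by the same distance were Myh7, Bex1, Ankrd1 (0.28), Csrp3 (0.30) and Sln (0.30). Those nearest to Bex1 were Csrp3 (0.17), Sncg, Myh7, Ccn2 (0.30) and Sln (0.31). Ankrd1 and Csrp3 encode muscle proteins of the sarcomere that respond to stretch, Sln encodes sarcolipin, which regulates the calcium pump, and Ccn2 encodes connective tissue growth factor. Csrp3 was the nearest of all 9518 to Bex1. Its log2 differences were 0.37, 2.48 and 2.05 for animals 4, 5 and 6.

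The sequence around the annotated start of Sncg is shown with that of Myh7, because Myh7 was the named gene nearest to Sncg. Each is a 300-base window from RefSeq on build GRCr8, written 5′ to 3′ on the strand of the gene. The Sncg window is chr16:9711287-9711586, minus strand, and that of Myh7 is chr15:32438145-32438444, minus strand. Capitals mark E-boxes, spelled CANNTG, and the core GGAAA bound by NFAT factors, which reads TTTCC on the other strand.
Sncg promoter: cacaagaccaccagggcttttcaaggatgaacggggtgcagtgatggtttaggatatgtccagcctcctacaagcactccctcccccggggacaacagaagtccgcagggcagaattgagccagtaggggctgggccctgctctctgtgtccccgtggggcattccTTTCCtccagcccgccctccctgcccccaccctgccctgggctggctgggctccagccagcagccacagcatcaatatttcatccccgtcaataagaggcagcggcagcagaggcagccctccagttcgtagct
Myh7 promoter: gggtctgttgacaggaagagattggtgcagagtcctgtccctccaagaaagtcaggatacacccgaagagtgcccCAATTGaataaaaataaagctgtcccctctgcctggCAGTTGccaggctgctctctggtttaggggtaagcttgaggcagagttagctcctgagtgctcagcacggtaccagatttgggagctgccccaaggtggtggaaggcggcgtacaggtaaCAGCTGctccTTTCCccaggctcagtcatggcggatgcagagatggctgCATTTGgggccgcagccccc
The Sncg window held 0 E-boxes and that of Myh7 held 4, where 72.1% of 33469 rat promoter windows held at least 1. The last of the Myh7 E-boxes, CATTTG, lies after an ATG near the end of the window. From that ATG the letters read on without a stop codon. That stretch may be coding sequence, which was not checked. Each window held 1 GGAAA core over both strands, as did 62.7% of all windows at least once. No marked E-box overlapped a GGAAA core in either window. TATAAA was in neither, and in 14.2% of all windows. The GC content was 61.7% for Sncg and 56.7% for Myh7, against a median of 51.7%. The motifs were chosen after the expression values were known, and a match or its absence describes only these letters.

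Relatives of the members had smaller or mixed differences. Among the synucleins measured, Sncb, beta-synuclein of brain, lay at 2.4 to 8.8 ipsilaterally and 3.1 to 14.7 contralaterally over its 2 probe sets, below the pseudocount in every library. Of 6 measured Bex and Tceal family genes and partners, 5 were tested, 2 were higher in all 3 animals, Bex1 among them, and 0 passed the adjusted threshold. The share higher in all 3 animals was 12.3% over all tested probe sets. Tceal9, a small X-linked relative of the Bex proteins, averaged 442 ± 44.9 ipsilaterally and 316 ± 28.1 contralaterally, a log2 difference of 0.46 (SE 0.16; adjusted p = 0.659 in limma's paired fit). It was the other family gene with the library order of Sncg and Bex1, over a far smaller range. Tceal8 averaged 344 ± 52.6 ipsilaterally and 242 ± 50.5 contralaterally, and its log2 difference was -0.05 in animal 6.

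Bex3, known from mice as a partner of p75, had the sign of Bex1 in animals 5 and 6 and the opposite sign in animal 4. Its intensities were 24.4 in ipsilateral 4, 117.8 in ipsilateral 5 and 104.8 in ipsilateral 6, against 156.4 in contralateral 4, 37.3 in contralateral 5 and 67 in contralateral 6. The log2 differences of animals 4, 5 and 6 were -2.10, 1.33 and 0.54, and the groups overlapped. Bex4 was below the filter, at 20.6 to 24.3 ipsilaterally and 18.9 to 27.8 contralaterally. Bex family members are similar in sequence, and how far a probe set tells them apart was not tested.

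Of 9 measured genes of the NCAM family, the enzymes that attach polysialic acid to it and its partners, 4 were tested, and 0 had a difference of the same sign in all 3 animals by the brightest probe set, where 27.4% of all tested probe sets did. With only 4 genes, a count of 0 cannot be told apart from that share. A dimmer probe set of Gfra1, a receptor subunit for glial cell line-derived neurotrophic factor, was lower in each animal. It averaged 43.6 ± 8.81 ipsilaterally and 61.5 ± 7.62 contralaterally. L1cam, a related adhesion molecule of axons and Schwann cells, was below the filter, with 37.1, 41.2 and 48 in ipsilateral 4, 5 and 6 against 18.1, 31 and 41.7 in contralateral 4, 5 and 6. It was higher in each animal, with overlapping groups. The polysialyltransferase St8sia2 lay at 1.8 to 2.7 ipsilaterally and 2.2 to 7.7 contralaterally. Prnp, the prion protein and a binding partner of NCAM, was bright, at 1126 to 1366 ipsilaterally and 1185 to 1357 contralaterally, and differed by 0.02 (SE 0.15).

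**Figure D3:**
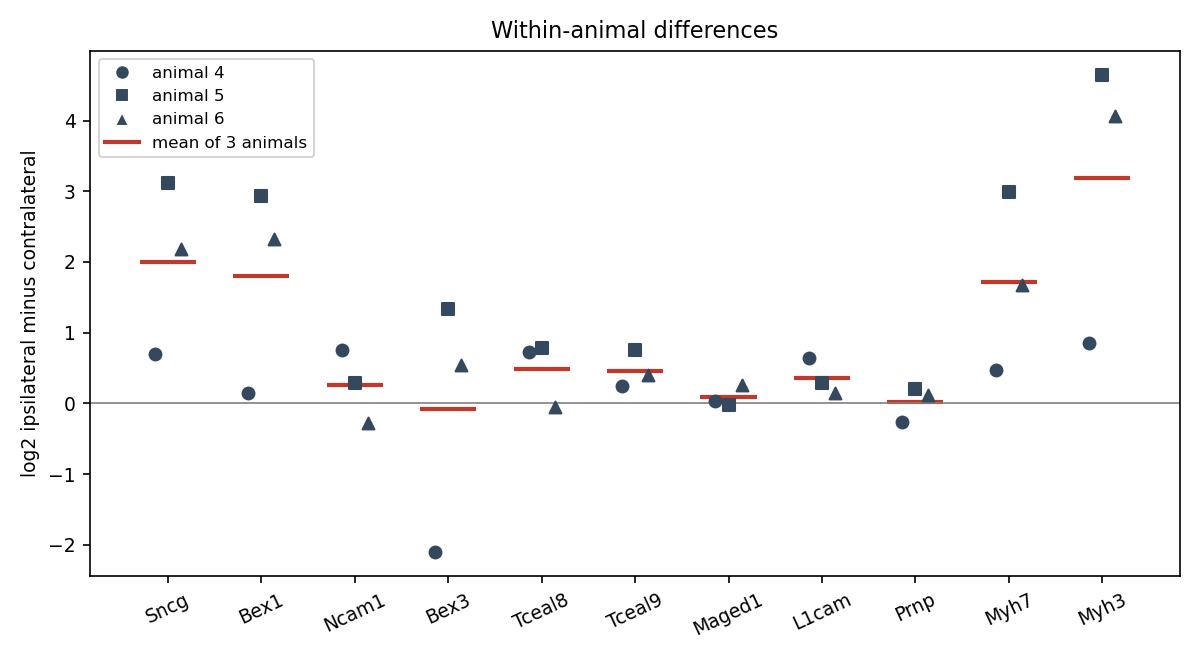
Log2 ipsilateral minus contralateral intensity (y axis) in each animal for the 3 members, selected relatives and partners, Myh7 and Myh3 (x axis, the brightest probe set of each), with red bars for the mean of 3 animals. Sncg and Bex1 have the pattern of Myh7, with means of 2.0, 1.81 and 1.71, while Bex3 lies at -2.10 in animal 4 and Ncam1 has its largest value there.

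Other transcripts of neurons were mostly dim. Of 26 measured neuronal and axonal markers, 17 lay below the filter, 0 of the 9 tested had higher values in each animal, and 2, Stmn2 and Rtn1, had lower values in each, near the shares of 12.3% and 15.1% over all tested probe sets. Their median log2 difference was -0.10, against -0.02 over all tested probe sets, and their summed intensity was 1123 to 1197 ipsilaterally and 1162 to 1513 contralaterally. Nefl, a neurofilament subunit, lay at 12.7 to 22.7 ipsilaterally and 17.5 to 27.8 contralaterally by its brighter probe set, and the synaptic protein Snap25 lay at 2.2 to 7.6 ipsilaterally and 3.7 to 11 contralaterally. Stmn2, a tubulin-binding protein of growing axons, had 58.2, 47.9 and 15.1 in ipsilateral 4, 5 and 6 against 59.2, 134.2 and 49.4 in contralateral 4, 5 and 6. It was lower in each animal, by a mean log2 difference of -0.78 (SE 0.24; adjusted p = 0.559 in limma's paired fit).

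Schwann cell and myelin markers were mixed. Of 14 measured genes 6 were tested, of which 2 were higher and 2 lower in all 3 animals, with a median of 0.16. The shares over all tested probe sets were 12.3% higher and 15.1% lower. By its brighter probe set Pmp22, a myelin protein that other tissues also make, averaged 642 ± 3.25 ipsilaterally and 485 ± 57.6 contralaterally. Mbp, myelin basic protein, differed by -0.38 (SE 0.16) by its brighter probe set. The dimmer ones were mixed, with log2 differences for animals 4, 5 and 6 of 0.77, -0.46 and 0.41 for Pmp22. For Mbp, below the filter, they were 0.09, -0.15 and 0.29. The summed intensity of the list was 1234 to 1366 ipsilaterally and 1082 to 1172 contralaterally. The part of nerve or Schwann cell content in the values of Sncg and Bex1 was not tested.

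Fat cell markers differed in both directions. Of 15 measured adipocyte genes 10 were tested, with 4 higher and 3 lower in each animal, a median log2 difference of 0.48 and 0 past the adjusted threshold. Among all tested probe sets 12.3% were higher and 15.1% lower in each animal. By animal, 4, 5 and 6, the median was -0.11, 0.76 and 0.41. Cfd, adipsin, averaged 735 ± 93.0 ipsilaterally and 418 ± 47.3 contralaterally, with log2 differences of 0.53, 0.93 and 0.91 in animals 4, 5 and 6. Fabp4, the fatty acid binding protein of fat cells, differed by 0.52 (SE 0.16). The 3 with lower values in each animal were Agt, angiotensinogen, at -0.54 (SE 0.18), Gpd1, a glycerol phosphate dehydrogenase that muscle also makes, at -0.47 (SE 0.18), and Acaca, an acetyl-CoA carboxylase, at -0.22 (SE 0.15). The summed intensity of the list was 5040 to 6566 ipsilaterally and 4814 to 5385 contralaterally, while leptin, Lep, lay at 2 to 3.5 ipsilaterally and 2.5 to 3.9 contralaterally. The part of fat cell content in the Sncg values was not tested.

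The slow fibre list had the median nearest to the differences of Sncg and Bex1 among the lists with at least 4 tested genes. In it, 11 of 12 measured genes were tested, 7 were higher in all 3 animals and 0 lower, and the median log2 difference was 1.04. By animal, 4, 5 and 6, it was 0.25, 1.82 and 1.12. Over all tested probe sets, 12.3% were higher and 15.1% lower in all 3 animals. The developmental and regenerating muscle list had a median of 0.33 over 13 tested genes, 5 of them higher in all 3 animals and 0 lower. The 5 were Myh3 itself, Myl4 at 0.94 (SE 0.20), Nes at 0.44 (SE 0.16), Dlk1 at 0.39 (SE 0.16) and Vim at 0.18 (SE 0.14). In neither list did a gene pass the adjusted threshold. Myod1, a marker of activated muscle precursor cells and also present in fibres, had 280 ± 73.1 ipsilaterally and 283 ± 99.8 contralaterally. Myog, the myogenin gene, which is known to respond to denervation, had log2 differences of -0.31, 1.36 and 0.63 for animals 4, 5 and 6, the same order of animals as Sncg and Bex1.

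Markers of other cell types had medians nearer to 0 than the slow fibre list. Macrophage and immune markers had a median of -0.29 over 13 tested genes, with 6 lower and 0 higher in all 3 animals. The shares over all tested probe sets were 15.1% lower and 12.3% higher. Endothelial markers had a median of 0.20 over 8 genes, with 4 higher and 0 lower in all 3 animals. Fibroblast and tendon markers had 0.13 over 10, with 4 higher and 2 lower. Their summed intensities were 4284 to 6084 ipsilaterally and 5934 to 6482 contralaterally for macrophages. For endothelium they were 1098 to 1449 ipsilaterally and 976 to 1046 contralaterally, and for fibroblasts 9890 to 11610 ipsilaterally and 9977 to 11170 contralaterally. Their part in the values of Sncg and Bex1 was not tested.

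**Figure D4:**
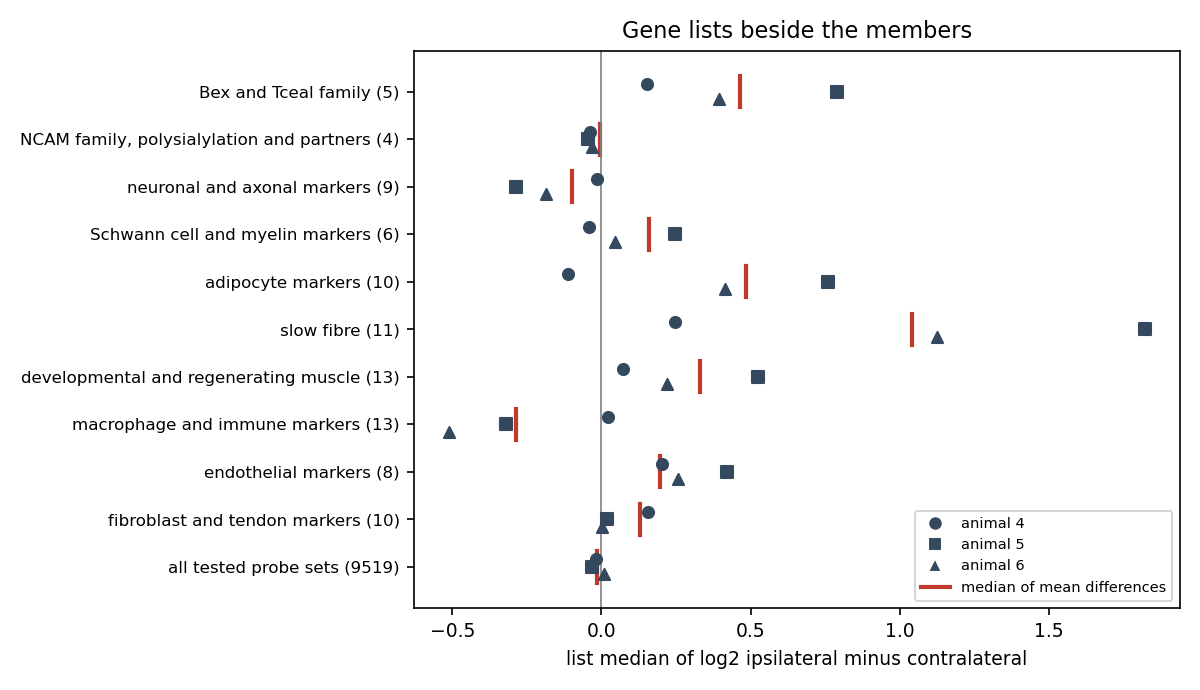
Median log2 ipsilateral minus contralateral difference (x axis) of each list with at least 4 tested genes (rows, with that number), as a point per animal and a red bar for the median of the mean differences. Of the lists drawn, the slow fibre list has the largest median, 1.04, the neuronal list has -0.10 and all tested probe sets together have -0.02.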

How the data were processed

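Total RNA of 6 rat tibialis anterior muscles, 3 ipsilateral and 3 contralateral, was measured on 1 array each. Groups and animal numbers came from the sample titles, where Cont was read as contralateral. The authors deposited linear intensities, 1 per probe set and array, with the arrays scaled to a common trimmed mean, as found from the values. The software and detection calls are not given in the sources used here. Symbols came from the platform annotation, which can be out of date and names 12783 probe sets with 1 symbol.

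Values were used as log2(intensity + 15.8), with no further normalization since array medians lay within 0.117. The pseudocount is the 20th percentile of all values. The filter on dim probe sets, the 40th percentile of mean log2 values, left 9519 of 15866 non-control probe sets. These were fitted with limma 3.58.1 in R 4.3.3 (lmFit, and eBayes with trend), blocked by animal, with Benjamini-Hochberg adjustment. Both muscles come from 1 animal, which gives the pairing. Deviations from group means correlated between muscles of an animal at -0.04, 0.07 and 0.13. The SE comes from this fit, or from the unfiltered one for dim probe sets. The procedure was tested on data simulated with independent noise and no animal effects. At an adjusted p under 0.05 in the limma fit, it recovered 1.49% of 1.5-fold, 23.9% of 2-fold and 83.3% of 4-fold changes. A count of 0 adjusted calls thus says little about changes of 2-fold or less. Lists were summarised on the brightest probe set per gene.

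The members and lists were chosen with earlier results of these data known. Named genes were the members and their relatives, Myh7 and Myh3, the nearest 5 genes by distance and up to 4 genes per list; of those, the ones bearing on the members are named, with a few markers chosen after their values were seen. Sequences came from RefSeq tables of build GRCr8. Some genes are not analysed here. Python 3.11.15 and matplotlib 3.10.9 were used. Alternatives covered the pseudocount, normalization, filter, variance prior, block, probe set and each animal left out.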

Additional observations from a re-analysis of the deposited data

How the results depend on the processing

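Under the other pseudocounts and quantile normalization, the difference was 1.843 to 2.068 for Sncg and 1.563 to 1.925 for Bex1. For Ncam1 it was 0.147 to 0.3519, and -0.02 by the dimmer probe set. The SD between animals is no yardstick for leaving out an animal, since a mean of 3 pairs cannot move that far. Leaving out each animal gave 1.44 to 2.65 for Sncg, 1.24 to 2.63 for Bex1 and 0.0047 to 0.52 for Ncam1. A setting chosen after seeing the data, with no replicate block and without ipsilateral 4, gave 2.48, 2.23 and 0.24. Without the replicate block alone, the values stayed at 2.0, 1.81 and 0.26, as they must with complete pairs. The SE was then 0.36, 0.39 and 0.27, and 0 probe sets passed. Of the count of 0 adjusted calls, the only departure was 241 without animal 4, and the animals left out in turn gave 0 to 241. The count of probe sets in 1 direction in all 3 animals, 2605, was 4029 with no filter on dim probe sets, since more were counted, and 4154 to 5803 with an animal left out, since fewer animals had to agree. With an animal left out, the distance to Myh7 ran from 0.17 to 0.23 for Sncg and from 0.12 to 0.35 for Bex1, the lowest of each without animal 6, and that to Myh3 from 0.70 to 1.14 for Sncg and from 0.70 to 0.96 for Bex1. Sncg and Bex1 had no other probe set. Low signal limits Ncam1 and Sncb, and 3 animals were measured.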
